A study of Mus musculus with 2 samples.

Results

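A group of genes that mark fat cells was followed in small intestinal RNA of IL-9 transgenic and wild-type mice, namely Adipoq, Retn, Lep, Plin1, Fabp4, Cidec, Lpl, Pparg and Cfd. All probe sets (a probe set is a handful of short probes against the same transcript) annotated to these 9 genes were taken. In the platform annotation used here, 7 of the 9 genes had a probe set of their own, with 11 probe sets in all, out of 18194 genes named on the array. Plin1 and Cfd had no probe set under their own name and were not analysed here. The genes were picked with values of these same arrays in view, so their differences are given as a description and no test is attached to them.

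The intestines came from mice of 6 to 8 weeks on the BALB/c background that carried an IL-9 transgene, and from wild-type mice of the same background and age. IL-9 is a cytokine of type 2 immunity that acts on mast cells. RNA of 3 mice was pooled for each genotype, and each pool was hybridised to 1 Affymetrix mouse array, so every value below is 1 measurement of 1 pool and the spread between mice is unknown. No treatment was given, and the labels do not say which promoter drives the transgene or in which cells it acts.

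White adipocytes store triglyceride in a single large lipid droplet and secrete hormones, the adipokines, that signal the state of the store to other organs. Lipoprotein lipase releases fatty acids from circulating lipoproteins at the capillary wall, binding proteins carry them inside the cell, and droplet coat proteins control their storage and release. The nuclear receptor PPARγ, with partners of the C/EBP family, drives the differentiation of the cell and transcription of many of these genes. The gut wall itself holds few adipocytes, but the mesentery that attaches to it is rich in fat. Several of the genes are also active in other cells, for example Fabp4 in macrophages and capillary endothelium and Lpl in muscle and macrophages.

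The arrays carried an intestinal profile in both pools. All 10 enterocyte markers that were named passed the expression filter, a log2 value of 6.31 or an intensity of 78.5 in at least 1 pool. Intensities are given below as a pair, the transgenic pool before the wild-type pool. Fabp1, the liver-type fatty acid-binding protein of enterocytes, read 21387 against 19741, and the median log2 difference over the 10 markers was -0.10. The median intensity of the arrays was 78.7 and 78.3. The 3′ to 5′ ratio of the actin control probe sets, a sign of RNA integrity, was 1.33 against 1.61. Il9 read 62.2 against 71.6 on its 1 probe set, below the filter in both pools, so the direction of every difference rests on the labels alone. A difference below is the log2(intensity + 1) value of the transgenic pool less that of the wild-type pool, and folds are on that scale too.

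Of the fat cell genes, Adipoq alone differed by more than 2-fold, and it did so from a very dim reading in the wild-type pool. The other 6 genes read higher in the transgenic pool by 0.04 to 0.55 on the log2 scale. Lep stayed below the filter in both pools. Cidec (0.21) and Pparg (0.17) lay under 0.23, the SD of the difference between probe sets of one gene, and Retn (0.25) little above it. Among 11862 genes past the filter 72 were higher by 2-fold, which is 0.607%, and 24 were lower by 2-fold, which is 0.202%. Of the 6 member genes past the filter, 1 was higher by 2-fold and 0 were lower, but the choice of genes used this same contrast, so nothing is read from that count. In bulk tissue, a change in the number of cells of a type and a change in RNA per cell cannot be told apart.

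**Figure D1:**
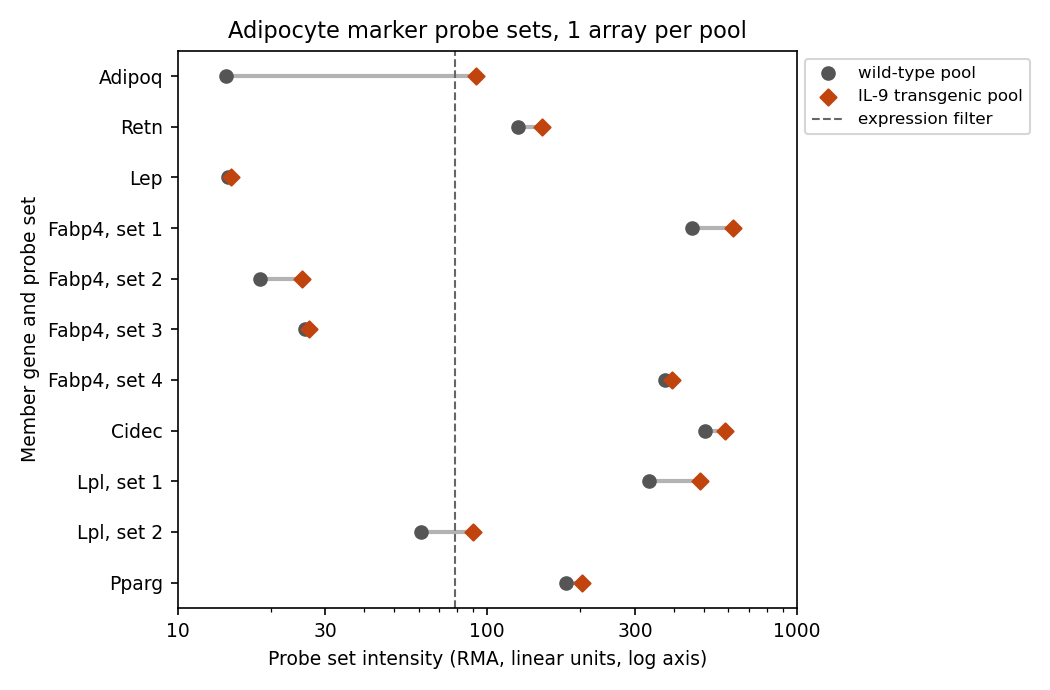
Intensity of each of the 11 probe sets of the adipocyte marker genes (x axis, linear RMA units on a log axis), with 1 point for the wild-type pool (circle) and 1 for the IL-9 transgenic pool (diamond). The dashed line is the expression filter at 78.5. Adipoq spans from 14.3 to 91.9, and the other points of a pair lie close together.

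Adiponectin, encoded by Adipoq, is the most specific of these hormones for adipocytes and sensitises liver and muscle to insulin. Its 1 probe set, 1422651_at, read 91.9 against 14.3. The wild-type reading stood at percentile 10.6 of its array, among the dimmest probe sets, and the transgenic reading at percentile 53.7. The difference was 2.60, or 6.07-fold, and only the transgenic reading reached the filter. Only 7 of the 11862 genes past the filter had a larger difference. Among 7619 probe sets whose mean log2 value lay within 0.5 of that of Adipoq, 6 were higher by 2-fold, which is 0.0788%. Of these, 1, Adipoq itself, reached 2.60. Adipoq was chosen with this difference in view and passed the filter through its transgenic reading alone. Nothing is therefore read from its rank or from the count at its level. With a pseudocount of 16, which weighs down dim values more, the difference was 1.83 and still past 2-fold. No further probe set of this gene was named, so the reading has no check by another set of probes on the same arrays.

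Resistin, encoded by Retn, is a hormone that mouse adipocytes secrete and that opposes insulin action. Its probe set read 150 against 126, both past the filter. The difference of 0.25 was little above 0.23, the SD of the difference between probe sets of one gene, taken over 4965 genes that had more than 1 probe set above the filter. That SD is a technical measure from within the arrays, not a measure of how mice differ. Leptin, encoded by Lep, reports fat mass to the hypothalamus. It read 14.9 and 14.5, at percentiles 11.3 and 10.9 of the arrays, a difference of 0.04. The 3 hormones therefore gave different pictures on the same arrays, with Adipoq apart, Retn nearly level and Lep at the dim end of both arrays.

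The bases just upstream of the Adipoq and Lep starts are shown for the hormone with the large difference and for the one that read alike in both pools. The windows are the 250 bases before the gene's start in the RefSeq promoter table of mouse build GRCm38.p6, which held 7 of the 9 genes. Fabp4 and Lpl had no window there, while Plin1 and Cfd did. The Adipoq window is chr16:23146286-23146535 on the plus strand and the Lep window is chr6:29059971-29060220 on the plus strand, both printed 5′ to 3′. Capitals mark matches to CCAAT on either strand (in Adipoq) and to TTGCGCAA (in Lep).
Adipoq: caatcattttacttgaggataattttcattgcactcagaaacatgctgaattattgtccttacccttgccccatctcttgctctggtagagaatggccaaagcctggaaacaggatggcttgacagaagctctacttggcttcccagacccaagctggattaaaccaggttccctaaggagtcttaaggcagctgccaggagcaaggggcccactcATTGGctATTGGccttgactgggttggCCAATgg
Lep: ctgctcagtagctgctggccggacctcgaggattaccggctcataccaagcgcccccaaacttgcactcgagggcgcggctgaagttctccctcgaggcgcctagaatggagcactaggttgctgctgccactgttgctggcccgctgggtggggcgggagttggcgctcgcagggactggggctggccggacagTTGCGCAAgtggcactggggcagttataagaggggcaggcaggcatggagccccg

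Motifs were searched on both strands. AGGTCA is the element read by PPARγ and related nuclear receptors. Its direct repeat with a base between the copies was searched as AGGTCANAGGTCA, and a match to the repeat is also a match to the element. The palindrome TTGCGCAA is read by C/EBP factors. The promoter boxes CCAAT and, in a separate search, TATAAA were added. The Adipoq window held CCAAT 3 times, starting 34, 27 and 7 bases before the start, and none of the other motifs. CCAAT occurred in 33.8% of the 32851 windows of the same length in the table. The Lep window held TTGCGCAA once, starting 55 bases before the start, a motif found in 0.164% of the windows. The direct repeat occurred in 0.0335% of all windows. None of those of the 7 member genes in the table held it, and Fabp4 and Lpl were not searched. AGGTCA, in 14.0% of all windows, was found in 2 of the 3 Pparg windows, and the Retn window held none of the motifs. TATAAA, in 12.4% of all windows, was found in 1 Pparg window. These are matches of letters and say nothing about binding.

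Lipoprotein lipase, encoded by Lpl, had the next largest difference after Adipoq. Its brighter probe set, 1415904_at, read 486 against 332, a difference of 0.55. Its other probe set, 1431056_a_at, read 90.3 and 61.3, also a difference of 0.55, and reached the filter in the transgenic pool only. The filter thus fixed the direction of 1431056_a_at. The sizes were alike, 1.46-fold and 1.47-fold, but both sets read the same gene in the same pools and are not separate evidence. Of the genes past the filter, 2.03% had a difference at least as large as that of Lpl, which was chosen with its values in view.

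The partners of the lipase did not share one direction. Gpihbp1, which holds the enzyme on capillary endothelium, read 97.4 and 98.6, a difference of -0.02, and Lmf1, which matures it in the endoplasmic reticulum, differed by 0.01. Apoc2, its activating apolipoprotein, read 12533 and 12511. Angptl4, which inactivates the enzyme and is itself a PPAR target, was the 1 gene of this list past 2-fold. It read 155 against 319, 2.05-fold lower, on a probe set that can match other transcripts, and 7.47 against 7.69 on its other, very dim probe set. With a pseudocount of 16 the difference was -0.97, under 2-fold, and as the mean of both probe sets it was -0.54. Cd36, the fatty acid translocase, read lower on all 3 of its probe sets, with differences from -0.39 to -0.77. Of the 10 lipase partners past the filter, 0 were higher by 2-fold and 1 was lower. Over all genes past the filter these shares were 0.607% and 0.202%. The median of the partners was 0.0031, or -0.30 under a filter at the 75th percentile.

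Fabp4, the fatty acid-binding protein of adipocytes, had 4 probe sets that did not agree in size. The brightest, 1417023_a_at, read 622 against 457, a difference of 0.44. The next, 1451263_a_at, read 395 and 376, a difference of 0.07. The remaining sets, 1424155_at and 1425809_at, stayed below the filter, with 25.3 against 18.4 (0.44) and 26.6 against 25.7 (0.05). All 4 lay above 0, from 0.05 to 0.44, so the size for this gene depends on the probe set.

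Other fatty acid-binding proteins on the list differed less or in the opposite direction. Fabp5, the epidermal-type protein that adipocytes and macrophages also make, read 604 and 787, a difference of -0.38, and its second probe set differed by -0.10. Fabp1 differed by 0.12, Fabp2, the intestinal form, by -0.09, and Fabp3, the heart form, by -0.03. Of the 4 past the filter, 0 passed 2-fold, and the median was -0.06.

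Cidec, a protein that fuses lipid droplets into the large droplet of white adipocytes, read 585 against 506. Its difference of 0.21 was under the SD between probe sets of one gene. Plin1, the droplet coat protein of adipocytes, had no probe set under its own name, but other droplet proteins were measured. Plin4, a coat protein abundant in white fat, read 121 and 125, and Plin2, the coat protein found in most cells, read 2239 and 2482. Abhd5, the co-activator of triglyceride lipase, and Plin3, a further coat protein, had the largest differences of the list at 0.29 and -0.27, but a further Abhd5 probe set past the filter lay at -0.08. Of 9 droplet proteins past the filter, 0 passed 2-fold in either direction, 5 lay above 0 (51.4% of all genes past the filter did), and the median was 0.01. Cidea, the relative of Cidec in brown fat, stayed below the filter at 34.6 and 37.9.

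Pparg, the master regulator of the lineage, read 202 and 180 on its 1 probe set, a difference of 0.17. Other factors of the adipogenic programme gave small differences of both signs. Cebpa, a factor that maintains the adipocyte state with PPARγ, read 626 and 733, a difference of -0.23, Cebpd, an early factor of differentiation, differed by -0.43, and Rxra, the obligate partner of PPARγ on DNA, by -0.34, or by -0.10 when its probe sets were averaged. Of 12 adipogenic transcription factors past the filter, 4 lay above 0 and 8 below, against 51.4% of all genes past the filter above 0. None passed 2-fold, and the median was -0.11, or -0.02 with the mean over probe sets.

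**Figure D2:**
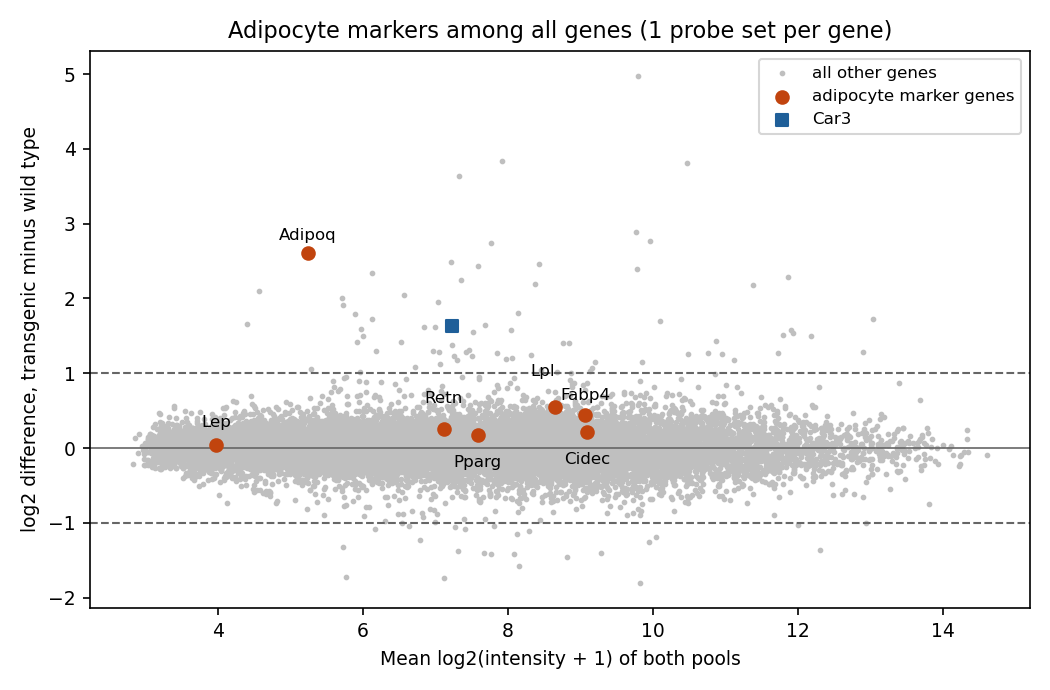
log2 difference, transgenic minus wild type, against the mean log2(intensity + 1) of both pools, for 18194 genes with 1 probe set each (grey), the 7 adipocyte marker genes (orange) and Car3 (blue square). Dashed lines mark 2-fold. Adipoq lies at 2.60 with a dim mean level, Car3 at 1.63, and the other 6 markers lie between 0.04 and 0.55, inside the 2-fold lines.

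Taken over the 7 genes, the median difference was 0.25 with no filter, and 0.35 over the 6 past the filter, of which Adipoq had to differ because its wild-type reading was under the filter. Over all genes past the filter the median was 0.0083. Without Adipoq the median of the other 6 genes was 0.23. All 11 probe sets lay above 0, under quantile normalization, median centring and the pseudocounts tried as well, against 50.7% of all probe sets. The 4 probe sets of Fabp4 and the pair of Lpl share a transcript and are not separate evidence, and the genes were chosen on these values. The summed intensity of the 7 genes, with 1 probe set each, was 2153 against 1630.

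Other genes of white adipocytes had a median close to 0. Of 36 listed, 34 were named on the array and 29 passed the filter. Of the 29, 1 was higher by 2-fold and 0 were lower, against 0.607% and 0.202% of all genes past the filter. Among them 16 lay above 0 and 13 below, the median was 0.02, and 25 of the 29 lay within 0.5 of 0. Hormone-sensitive lipase, encoded by Lipe, which adipocytes use to release fatty acids, read 546 and 601, and Pnpla2, the triglyceride lipase that acts before it, read 1078 and 1069. Slc2a4, the insulin-responsive glucose transporter of fat and muscle, read 193 and 197, and the droplet-lipase inhibitor G0s2 read 111 and 105. Adig, a small adipocyte protein also called adipogenin, stayed below the filter at 40.6 and 36.9.

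The 1 gene past 2-fold in that list was Car3, a carbonic anhydrase that is very abundant in fat and in slow muscle. Its probe set with the highest mean, 1460256_at, read 263 against 84.3, 3.09-fold higher. A further probe set, 1449434_at, read 292 and 22.8, a difference of 3.62 or 12.3-fold. The remaining pair read at the dim end, 16.2 against 12.4 and 9.00 against 8.07. That pair stayed below the filter. Of the brighter pair, 1449434_at reached the filter in the transgenic pool only, so the filter fixed its direction, and the sizes of the brighter pair were unlike.

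Scd1, Aqp7 and Thrsp, genes of fat synthesis and glycerol release, were picked after their values were seen. Scd1, the stearoyl-CoA desaturase, read 373 and 194, a difference of 0.94, with 0.08 on a dim second probe set. Aqp7, the glycerol channel of adipocytes, read 352 and 192 on one probe set (0.87) and 278 and 241 on the other (0.21). Thrsp, a lipogenic protein of fat and liver, lay above 0 on all 3 probe sets, from 0.29 to 0.96. Its sets at 0.58 and 0.96 reached the filter in the transgenic pool only. In the opposite direction Pck1, the gluconeogenic enzyme that adipocytes use to make glycerol, read 1084 and 1782, a difference of -0.72. At 1.5-fold in place of 2-fold, 3 genes of the list were higher.

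**Figure D3:**
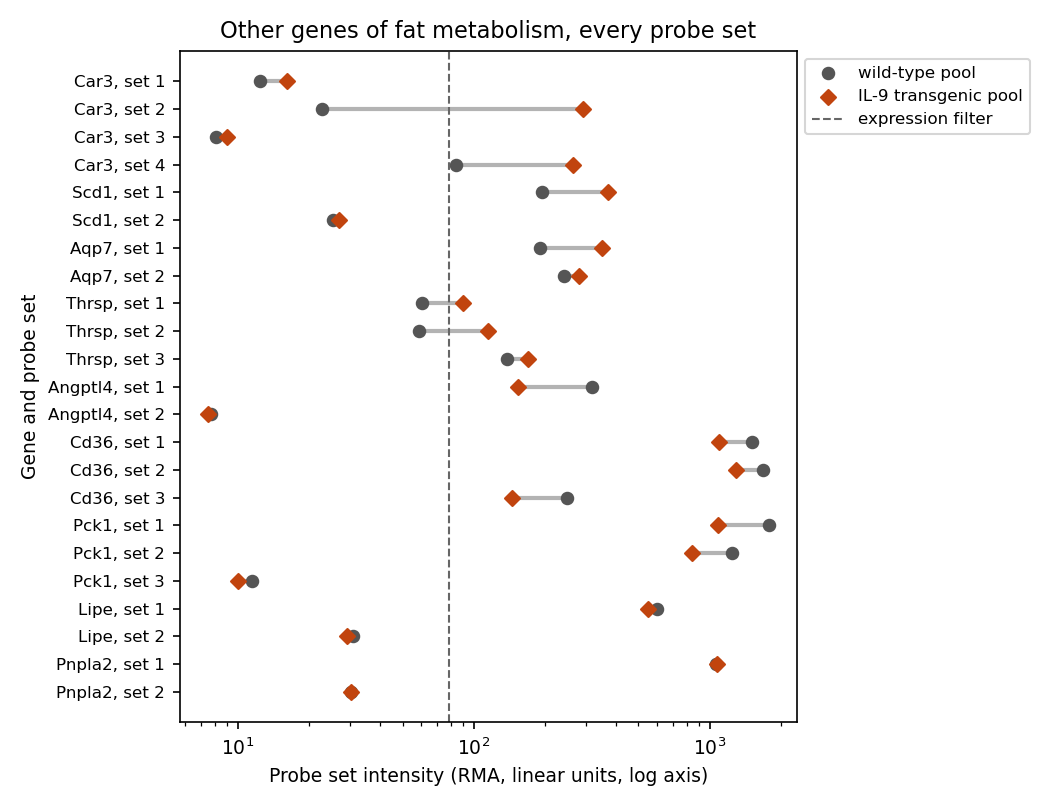
Intensity of every probe set of 9 further genes of fat metabolism (x axis, linear RMA units on a log axis) in the wild-type pool (circle) and the IL-9 transgenic pool (diamond). The dashed line is the expression filter at 78.5. Car3 has the widest gaps, 22.8 to 292 and 84.3 to 263, while both probe sets of Lipe and of Pnpla2 nearly coincide and those of Angptl4, Cd36 and Pck1 read lower in the transgenic pool.

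The receptors for the hormones showed no difference of 2-fold. Adipor1 and Adipor2, the adiponectin receptors, read 1403 against 1573 (-0.16) and 3736 against 4265 (-0.19) on their brightest probe sets. The other Adipor1 sets differed by -0.03 and -0.0039, and the other Adipor2 set by -0.29. Cdh13, a cadherin that binds adiponectin on vessels, read 132 and 127, and Cap1, a protein reported to bind resistin, read 2937 and 2518. With 1 probe set per gene, Cap1 had the largest difference among the receptors past the filter at 0.22, and its other set differed by 0.39. The leptin receptor Lepr stayed below the filter on all 4 probe sets, its brightest reading 70.1 and 59.7. The median over the 5 receptors past the filter was -0.13.

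Brown fat markers gave no common direction. Ucp1, the uncoupling protein that defines brown adipocytes, read 29.2 and 31.1, below the filter in both pools, as did Cidea, Elovl3 and Dio2. Cox7a1, a cytochrome oxidase subunit of muscle and brown fat, read 1805 and 1166, a difference of 0.63, and Prdm16, a regulator of brown fat, differed by -0.39, or by -0.03 when its probe sets were averaged. The median of the 5 past the filter was -0.01.

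Markers of other tissues that can accompany mesenteric fat were read on the same arrays. Of 13 genes of fibroblasts and adipocyte progenitors past the filter 0 passed 2-fold, with a median of -0.08 and the largest differences in Pdgfrb (-0.51) and Pi16 (-0.32), both of which lay above 0 once multi-transcript probe sets were left out. Of 10 mesothelial genes 5 passed the filter, with a median of -0.13, and over all 10 the median was -0.21 with 9 below 0. Of the 5 past the filter, Gpm6a and Upk3b had the largest differences, -0.98 and -0.53. Whether the Gpm6a RNA came from mesothelium alone was not tested. Gpm6a reached the filter in the wild-type pool only, which fixed its direction. So did 3 of the 13 fibroblast and progenitor genes, Pi16 among them. Endothelial genes had a median of 0.04 over 11 genes, with Tek at -0.52 and Kdr at -0.34, macrophage genes a median of 0.12 over 7, or -0.17 under a filter at the 75th percentile, with Lyz2 at -0.37 and Fcgr1 at 0.25, and smooth muscle genes a median of 0.05 over 10, with Des at 0.34 and Actg2 at 0.29. Only Acta1 (0.14) and Ckm (0.04) of 8 skeletal muscle genes passed the filter, and the enterocyte genes with the largest differences were Lct (-0.32) and Anpep (-0.23).

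Some exocrine pancreas genes read higher and B cell genes read lower in the same pool that read high for Adipoq. In the pancreas list 3 of 8 genes past the filter were higher by 2-fold, against 0.607% of all genes past the filter. The list was chosen with earlier results of these data known, so nothing is read from that count. The summed intensity of the list was 33500 against 25624, most of it from Zg16, which goblet cells also make (17851 against 20728). Pnliprp1 and Pnliprp2, lipase-related proteins, and Clps, the cofactor colipase, differed by 2.44, 2.28 and 1.51. The acinar enzymes Cpa1 and Cela2a were below the filter in both pools, Ctrb1 and Prss2 differed by -0.07 and -0.08. The median of 0.01 moved with the setting, to 0.78 with the mean over probe sets and to 1.51 under a filter at the 75th percentile. In the B cell and lymph node list the median was -0.68 over 7 genes past the filter and -0.65 over all 8 named, and the summed intensity was 974 against 1658. Ms4a1 and Cr2, surface proteins of B cells, were 3.33-fold and 3.31-fold lower. Both, with Fcer2a, reached the filter in the wild-type pool only, which fixed the direction of these 3. The part of these lists in the Adipoq and Car3 readings was not tested.

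**Figure D4:**
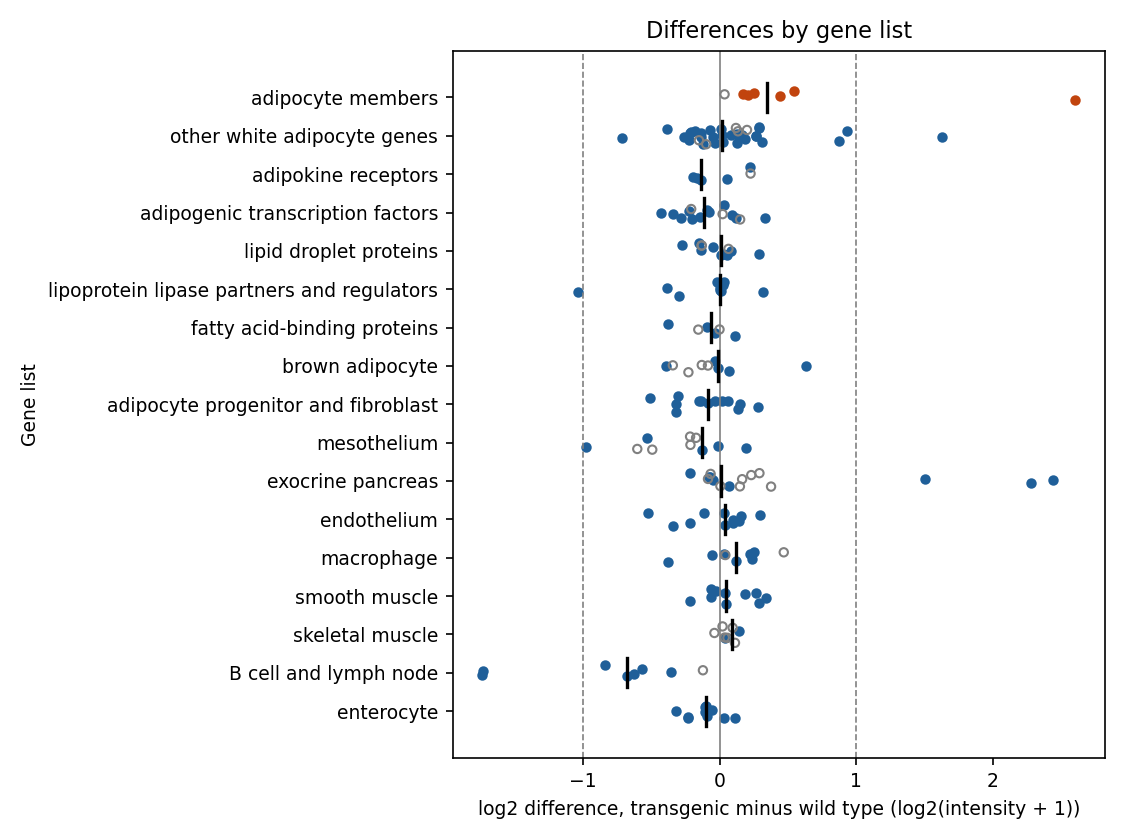
log2 difference, transgenic minus wild type, of each gene (1 probe set per gene) in 17 gene lists, with filled points for genes past the expression filter, open points for genes below it, a black bar for the median of those past it and dashed lines at 2-fold. Adipoq stands apart from the other adipocyte markers at 2.60, Car3 stands at 1.63 in the list of other white adipocyte genes, 3 pancreas genes lie past 2-fold on the right and 2 B cell genes past it on the left.

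The genes nearest to Adipoq in their pair of values were sought by the Euclidean distance between the log2 values of both pools, over 2 arrays and 1 probe set per gene. These were Gsdmcl-ps, a gasdermin C pseudogene (104 and 25.1), Bmx, a Tec family kinase (102 and 26.3), Strip2 (47.9 and 10.5), Fcer1a, the IgE receptor alpha chain of mast cells (109 and 31.0), and Sucnr1, the succinate receptor (55.3 and 26.1). Strip2 and Sucnr1 lay below the filter in both pools, as the search was not limited to genes past it. The distances ran from 0.79 to 1.10 on the log2 scale, so even the closest gene was not at the same place. With 2 arrays such a likeness is a pair of numbers only.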

How the data were processed

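Total RNA (10 µg) from 1 pool of 3 mice per genotype was labelled with biotin and hybridised to 1 array each, per the labels. The deposited values are intensities on a linear scale, one per probe set, and the submitters' processing notes name RMA with no version, while the sources used here give neither the genome build nor the chip annotation. RMA equalises the arrays' distributions, so a shift of most genes could not be seen, and background signal shrinks the differences of dim genes. No detection calls were used.

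Here the 45101 probe sets were named from a platform annotation table (34958 with 1 symbol, 932 with several, 9211 with none), checked against RefSeq identifiers, with 0 symbols updated. Values were taken as log2(intensity + 1). Of several probe sets the one with the highest mean stood for the gene, which passed when its higher value reached 6.31, the median of all values, which left 11862 of 18194 genes. A difference of 1 on the log2 scale, 2-fold, was counted. With 1 array per group no test was run, and the number of arrays limits the precision. The computation was tested on simulated data. Python 3.11.15, pandas 2.3.3 and numpy 2.4.6 were used.

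The members, the 17 gene lists and the alternatives were chosen with earlier results of these data known. Named are all members, the listed genes past 2-fold, otherwise the 2 largest differences of a list, fixed partners of the members, and the 5 genes nearest to Adipoq. Other genes named were chosen after their values were seen. Alternatives were no pseudocount or one of 16, quantile normalization, median centring, no filter or one at the 75th percentile, the mean over probe sets, omission of multi-transcript probe sets (names ending in _s_at, _x_at or _a_at), and thresholds of 1.5-fold and 3-fold.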

Additional observations from a re-analysis of the deposited data

How the results depend on the processing

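The count of member genes higher by 2-fold, which is 1, was unchanged in 9 of 10 alternatives and 0 under a filter at the 75th percentile, which removes Adipoq. The number of member probe sets past the filter and above 0 was 8, and 4 both with that filter and without multi-transcript probe sets, since fewer probe sets were left. The member median ran from 0.25 to 0.44. In the list of other white adipocyte genes, the 1 gene past 2-fold became 0 with the mean over probe sets, where Car3 fell below the filter, and 3 at 1.5-fold. Over all probe sets past the filter, 119 were higher and 45 lower by 2-fold. Under the 75th percentile filter these were 79 and 29, at 1.5-fold 447 and 409, at 3-fold 48 and 5, and without multi-transcript probe sets 27 were lower. Over genes, 72 were higher by 2-fold, 199 at 1.5-fold and 31 at 3-fold. There were no replicate arrays, and the wild-type reading of Adipoq was dim. No paired analysis was possible because each group had 1 array.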

Other observations

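The relatives of the adipokines were read after the values above were seen. Of 8 named adiponectin paralogs of the C1q/TNF family, 4 passed the filter and 0 passed 2-fold. C1qtnf12 had the largest difference, 0.31 (821 against 664), which was 0.02 when its probe sets were averaged, and C1qtnf1 read 100.3 and 87.2. Both named resistin-like genes were higher by 2-fold, as were 0.607% of all genes past the filter. Retnlb reached the filter in the transgenic pool only, which fixed its direction. Retnla, a product of alternatively activated macrophages that white fat also makes, read 360 and 115 (1.64), and Retnlb, a goblet cell peptide, read 567 and 44.6 (3.64).

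Enzymes of fatty acid synthesis were also picked after their values were seen, so no count over them is given. Me1, the malic enzyme that supplies NADPH, read 2016 and 382 on one probe set and 1122 and 323 on the other (2.40 and 1.79). Elovl6, the elongase of saturated fatty acids, lay above 0 on all 3 probe sets, from 0.26 to 0.68, while Fasn, the fatty acid synthase, differed by 0.27 and Srebf1, the transcription factor of the pathway, by -0.09. Socs3, a feedback inhibitor that leptin and other cytokines induce, read lower on all 3 probe sets, with differences from -0.19 to -0.51.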
